A study of Mus musculus with 12 samples.

Results

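The genes described here belong to the programme called alternative activation of macrophages, in which the cytokines IL-4 and IL-13 change what a macrophage makes. They were measured in melanophages, the pigment-laden macrophages of the skin, and in other skin macrophages. The 10 members were Retnla, Chil3, Arg1, Clec10a, Mgl2, Il4ra, Il13ra1, Stat6, Cish and Socs1, chosen by gene symbol, out of 19938 genes with a value. The members and the gene lists below were chosen with earlier results of these data known, so shares of all genes and ranks beside them are descriptions. Each member had 1 probe set with no other gene symbol, so no choice between probe sets was needed.

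All cells came from the skin of untreated wild-type mice, given in the labels as B6 and SPF. Every group was sorted for CD11b and CD64 and against CD24, CCR2 and Ly6C. The 4 groups were MHC-II-positive melanophages, MHC-II-negative melanophages, MHC-II-positive macrophages and MHC-II-negative macrophages, with 3 arrays each. Melanophages were sorted for high side scatter. For macrophages the labels disagree on that gate, which is high in the sample titles and low in the phenotype field. The labels give neither age nor sex, and do not state whether the 3 arrays of a group stem from different mice. The p-values therefore cover the spread between these samples alone, which may be technical.

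IL-4 and IL-13 bind receptors that share the IL-4 receptor alpha chain (Il4ra). With Il13ra1 this chain forms a receptor for both cytokines, and the bound receptor activates the transcription factor Stat6 through Janus kinases. In mouse macrophages Stat6 raises secreted products such as RELM-alpha (Retnla) and Ym1 (Chil3), the enzyme arginase 1 (Arg1) and the galactose-binding lectins Clec10a and Mgl2. Cish and Socs1 encode proteins of the suppressor of cytokine signalling family, which dampen such signals.

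The arrays resembled each other within groups, each correlating with its group mates at 0.972 to 0.988 on average. The arrays farthest from their mates were replicate 1 of the MHC-II-negative macrophages and replicate 3 of the MHC-II-positive macrophages, and the larger differences that moved most without them are given both ways. Of 13 macrophage markers, 12 had a group mean above log2 5 in every group, and Mertk, a macrophage receptor for dying cells, lay between 4.23 and 4.50. Array medians over all probe sets lay between 2.97 and 3.08, and values near them are taken as dim, where the array may understate a difference. The defining markers of eosinophils (Siglecf, Ccr3, Epx, Prg2) and of neutrophils (Ly6g, Ngp) had group means of at most 3.23 in every group. Of the 10 neutrophil markers, S100a8 had means of 6.93 and 5.86 in MHC-II-positive and MHC-II-negative melanophages and 5.53 and 4.88 in macrophages of these classes, and the others stayed below log2 5. All values below are deposited log2 expression values of 1 probe set, and levels of different genes are not compared.

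2 of the 10 members passed a test. Retnla was lower in melanophages than in macrophages, and Mgl2 was higher in cells with MHC-II than in cells without it. The Retnla call, averaged over MHC-II class, held in 23 of 23 alternative fits. That of Mgl2, averaged over cell kind, held in 8 of 23, and its difference passed within neither cell kind. Averaged over MHC-II class, 0 members rose, 1 fell and 9 did not pass between melanophages and macrophages, against 0.12% of all genes called (limma, adjusted over all genes by Benjamini-Hochberg, called under 0.05). The members' median difference was -0.31, 9 of 10 differences were negative, and the median over all genes was 0.01. Averaged over cell kind, 1 member rose, 0 fell and 9 did not pass between MHC-II-positive and MHC-II-negative cells, against 0.762% of all genes called. There the members' median difference was 0.25, with 8 of 10 positive, and the median over all genes was -0.02. 4 members had an unadjusted p under 0.05 between cell kinds and 5 between MHC-II classes, beside 1500 and 1840 of the 19938 genes in these comparisons.

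**Figure D1:**
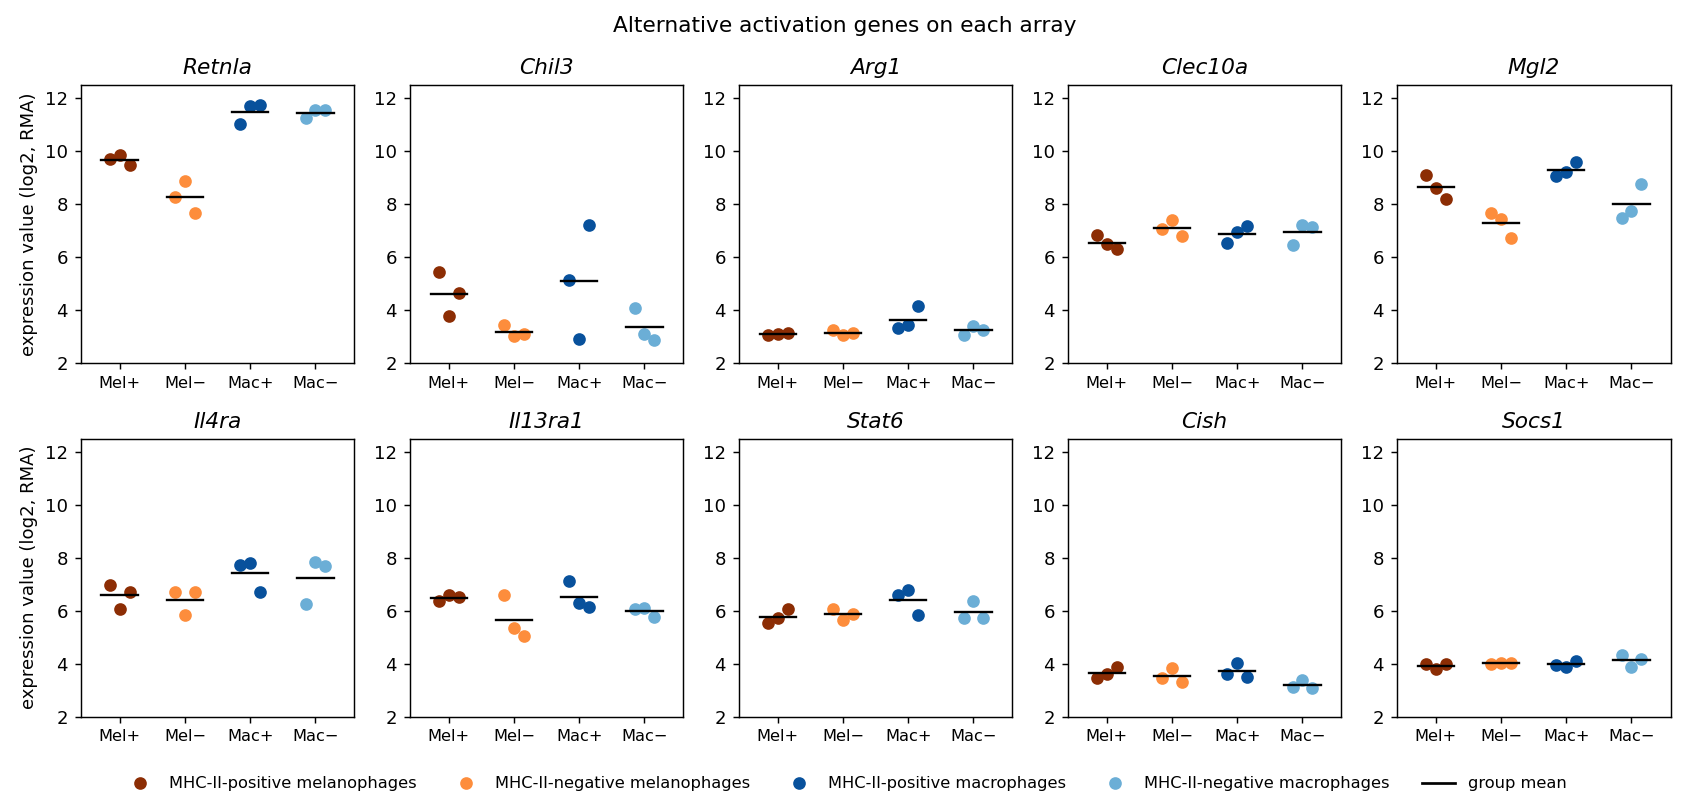
Deposited log2 expression values (RMA) of the 10 members on each of the 12 arrays. Points are arrays, in order of replicate, and bars are group means of MHC-II-positive and MHC-II-negative melanophages (Mel+, Mel−) and macrophages (Mac+, Mac−), 3 arrays each. Every melanophage array lies below every macrophage array for Retnla, and the MHC-II-positive arrays lie above the MHC-II-negative arrays of the same cell kind for Mgl2.

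Il4ra, the receptor chain shared by IL-4 and IL-13, had log2 values of 6.97, 6.08 and 6.71 in MHC-II-positive melanophages and 6.72, 5.84 and 6.70 in MHC-II-negative melanophages. In macrophages it had 7.72, 7.80 and 6.70 with MHC-II and 6.25, 7.83 and 7.68 without. Most macrophage arrays were higher than the melanophage arrays, but the lowest macrophage array in each class fell among them, and these were the 2 arrays farthest from their group mates. The averaged difference was -0.83 ± 0.32 (SE; limma adjusted p = 0.586). Without both of these arrays it was -1.25, with an adjusted p of 0.0523 that still missed the threshold.

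Il13ra1, which pairs with the Il4ra chain, had 6.36, 6.61 and 6.50 in MHC-II-positive and 6.58, 5.34 and 5.06 in MHC-II-negative melanophages. It had 7.12, 6.28 and 6.15 in MHC-II-positive and 6.07, 6.10 and 5.75 in MHC-II-negative macrophages. The classes did not overlap in macrophages, and in melanophages replicate 1 of the MHC-II-negative group reached the MHC-II-positive range. The MHC-II-positive minus MHC-II-negative difference, averaged over cell kind, was 0.69 ± 0.25 (limma adjusted p = 0.407), and the difference between cell kinds was -0.17 ± 0.25 (adjusted p = 0.934).

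Stat6, the transcription factor that carries the signal to the nucleus, had 5.53, 5.74 and 6.06 in MHC-II-positive and 6.06, 5.65 and 5.89 in MHC-II-negative melanophages. It had 6.59, 6.79 and 5.84 in MHC-II-positive and 5.73, 6.38 and 5.73 in MHC-II-negative macrophages. All groups overlapped, and the highest values were replicates 1 and 2 of MHC-II-positive macrophages. The averaged difference between cell kinds was -0.36 ± 0.18 (limma adjusted p = 0.717; -0.55 without both arrays farthest from their mates), and within MHC-II-positive cells it was -0.63 ± 0.26 (adjusted p = 0.763).

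Retnla encodes RELM-alpha, a small secreted protein of the resistin-like family made by alternatively activated mouse macrophages. It had 9.69, 9.85 and 9.49 in MHC-II-positive melanophages and 8.28, 8.88 and 7.68 in MHC-II-negative melanophages. It had 11.02, 11.70 and 11.72 in MHC-II-positive macrophages and 11.26, 11.55 and 11.57 in MHC-II-negative macrophages. Every melanophage array was lower than every macrophage array, and within melanophages every MHC-II-negative array was lower than every MHC-II-positive one. Since cells were measured in bulk, fewer cells with the transcript and less of it per cell cannot be told apart.

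Averaged over MHC-II class, Retnla fell in melanophages by 2.49 ± 0.20 on the log2 scale (SE; limma adjusted p = 0.00221), and it ranked 1 of 19938 genes by p. Between the MHC-II-negative groups the means were 8.28 ± 0.60 and 11.46 ± 0.17 (SD, n = 3) for melanophages and macrophages. That difference of -3.18 ± 0.28 (95% confidence interval -3.79 to -2.56), a 9.04-fold lower level, passed the test (limma adjusted p = 0.00605), and Retnla was the 1 gene called there, or 0.00502% of genes. Its call was lost in 4 alternatives, among them the fit that left out replicate 1 of the MHC-II-negative melanophages (adjusted p = 0.0647), those without MHC-II-negative macrophages replicates 2 and 3, and the fit of those 2 groups alone (adjusted p = 0.108).

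Between the MHC-II-positive groups the Retnla means were 9.68 ± 0.18 and 11.48 ± 0.40 (SD, n = 3) for melanophages and macrophages. The difference was -1.80 ± 0.28 (95% confidence interval -2.42 to -1.19), a 3.49-fold lower level, and missed the threshold (limma adjusted p = 0.127). In that comparison 0.015% of genes were called and 0 members. Retnla passed it in the fit of genes above log2 5 (adjusted p = 0.0402), in the one with trend and robust options (0.0241) and without MHC-II-negative melanophages replicate 2.

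The MHC-II-positive minus MHC-II-negative difference of Retnla was 1.40 ± 0.28 in melanophages (limma adjusted p = 0.127), where 0.211% of genes and 0 members were called. In macrophages it was 0.03 ± 0.28 (95% confidence interval -0.59 to 0.64), where 0.341% of genes and 0 members were called. The difference between those differences was 1.37 ± 0.39 with an unadjusted p of 0.00534 in limma. No member passed that interaction test, 0% of genes were called in it, and the smallest adjusted p of any gene was 0.965. An unadjusted p under 0.05 was found there for 820 genes and for 1 member, Retnla.

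**Figure D2:**
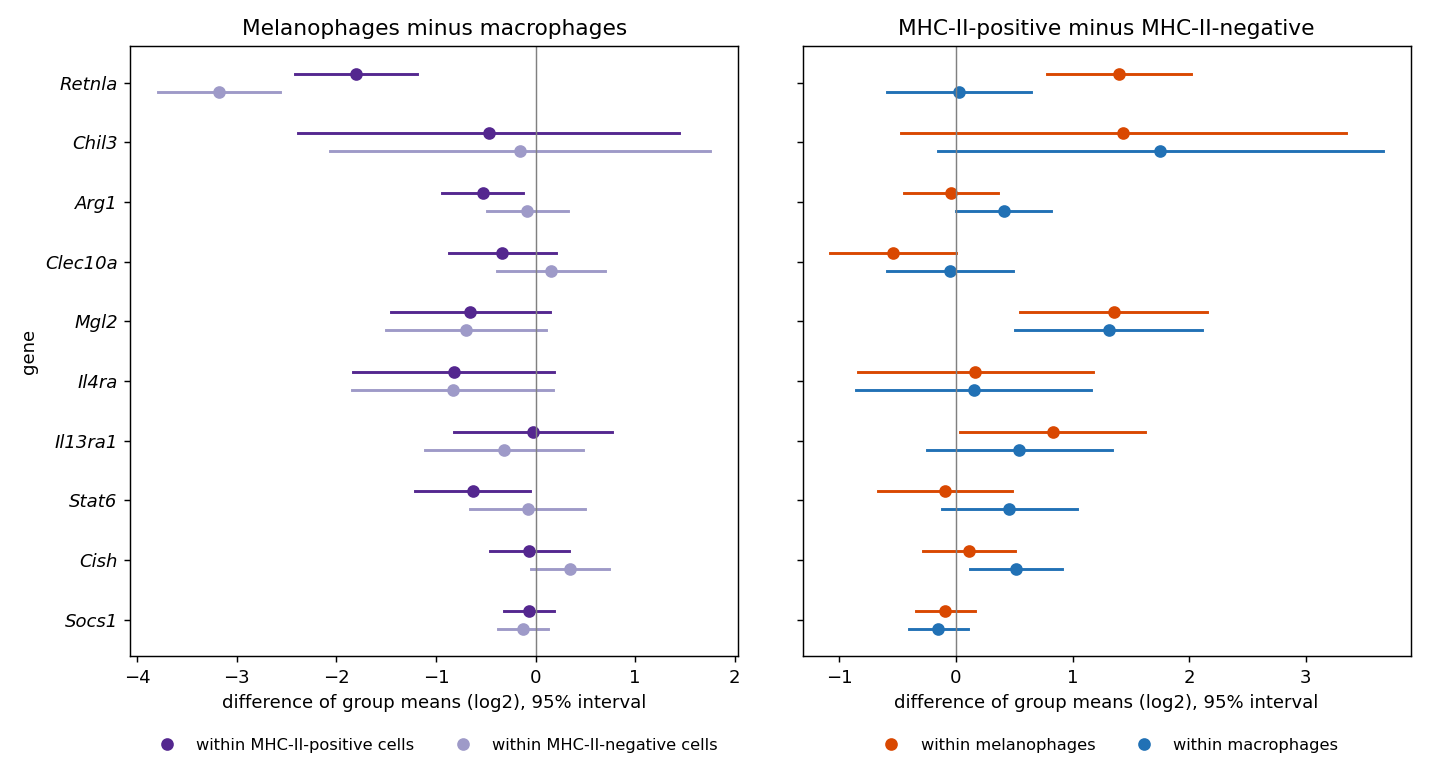
Log2 differences of group means with 95% confidence intervals from the limma fit for each of the 10 members. The left panel shows melanophages minus macrophages within each MHC-II class and the right panel MHC-II-positive minus MHC-II-negative cells within each cell kind. For Retnla the difference between cell kinds was -1.80 in MHC-II-positive and -3.18 in MHC-II-negative cells, and the MHC-II difference was 1.40 in melanophages and 0.03 in macrophages.

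Chil3 encodes the secreted chitinase-like protein Ym1. It had 5.43, 3.79 and 4.64 in MHC-II-positive melanophages and 3.45, 3.02 and 3.10 in MHC-II-negative melanophages. In macrophages it had 5.15, 2.92 and 7.22 with MHC-II and 4.09, 3.09 and 2.86 without. In melanophages the classes did not overlap, while MHC-II-positive macrophages ran from a dim 2.92 to the highest of the 12 values, 7.22.

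The MHC-II-positive minus MHC-II-negative difference of Chil3 was 1.59 ± 0.61 averaged over cell kind (limma adjusted p = 0.43; 1.06 without replicate 3 of the MHC-II-positive macrophages), and most MHC-II-negative arrays were near the array medians. The difference between cell kinds was -0.31 ± 0.61 (adjusted p = 0.949). Without replicate 3 of the MHC-II-positive macrophages alone it was 0.22, so its sign rests on that array, and without both arrays farthest from their mates it was 0.40.

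Arg1, which turns arginine into ornithine and urea, was dim. It had 3.07, 3.11 and 3.15 in MHC-II-positive and 3.24, 3.06 and 3.14 in MHC-II-negative melanophages. It had 3.32, 3.45 and 4.15 in MHC-II-positive and 3.05, 3.40 and 3.24 in MHC-II-negative macrophages. Replicate 3 of MHC-II-positive macrophages was the highest array. The melanophage and macrophage arrays did not overlap within MHC-II-positive cells, where the difference was -0.53 ± 0.18 (limma adjusted p = 0.661), and the averaged difference was -0.31 ± 0.13 (adjusted p = 0.636). Without replicate 3 of the MHC-II-positive macrophages these differences were -0.28 and -0.18, and with Arg1 dim in most arrays all of them lie between values near the array medians.

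The lectins Clec10a and Mgl2 bind galactose-type sugars and are close relatives. Clec10a had 6.84, 6.49 and 6.32 in MHC-II-positive and 7.06, 7.40 and 6.79 in MHC-II-negative melanophages. It had 6.52, 6.96 and 7.17 in MHC-II-positive and 6.46, 7.21 and 7.12 in MHC-II-negative macrophages. All 4 groups overlapped. The difference between cell kinds was -0.09 ± 0.17 (limma adjusted p = 0.948). The MHC-II difference was -0.29 ± 0.17 averaged over cell kind (adjusted p = 0.664; -0.48 without both arrays farthest from their mates) and -0.54 ± 0.24 in melanophages (adjusted p = 0.881).

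Mgl2 had 9.11, 8.62 and 8.21 in MHC-II-positive and 7.68, 7.46 and 6.74 in MHC-II-negative melanophages. It had 9.08, 9.22 and 9.60 in MHC-II-positive and 7.46, 7.74 and 8.77 in MHC-II-negative macrophages. Within each cell kind, every MHC-II-positive array was above every MHC-II-negative one, and replicate 3 of MHC-II-negative macrophages stood nearest to the MHC-II-positive arrays.

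Averaged over cell kind, Mgl2 rose in MHC-II-positive cells by 1.33 ± 0.26 (95% confidence interval 0.77 to 1.90; limma adjusted p = 0.0466), a 2.52-fold higher level. The call held in 8 of 23 alternatives, over which the difference ran from 1.12 to 1.53 and the adjusted p from 0.0124 to 0.138. It was lost in 11 of the 12 fits that left out 1 array and was kept without MHC-II-negative macrophages replicate 3 (adjusted p = 0.0134). The difference was 1.35 ± 0.36 within melanophages (adjusted p = 0.363) and 1.31 ± 0.36 within macrophages (adjusted p = 0.269), neither past the threshold. Between cell kinds the Mgl2 difference was -0.68 ± 0.26 (adjusted p = 0.566).

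Some markers of other cells also differed between the MHC-II classes, where 0.762% of all genes were called averaged over cell kind. Of 13 dendritic cell markers, Itgax, Cd207 and Ccr7 were called higher in MHC-II-positive cells and none lower. The mean level of the whole list was 3.61 to 3.97 in MHC-II-positive and 3.39 to 3.49 in MHC-II-negative melanophages, and 4.09 to 4.15 in MHC-II-positive and 3.43 to 3.59 in MHC-II-negative macrophages. Of the 13 differences between classes, averaged over cell kind, 10 were positive, with a median of 0.38. Group means above log2 5 were found for 2 of the markers in MHC-II-positive and 1 in MHC-II-negative melanophages. In macrophages of these classes they were found for 4 and 1. Flt3 and Zbtb46, also of this list, had group means of 3.18 to 3.64 in all groups, near the array medians. Of 4 monocyte markers, Ccr2 was called higher in MHC-II-positive cells (3.23, limma adjusted p = 3.93e-05), although all cells were gated against it. The list as a whole was split, with 2 differences positive and 2 negative and a median of -0.01, averaged over cell kind. The mean level of that list was 5.11 to 5.27 in MHC-II-positive and 4.35 to 4.53 in MHC-II-negative melanophages, and 5.38 to 5.54 in MHC-II-positive and 4.70 to 4.86 in MHC-II-negative macrophages. Of 9 T cell and ILC2 markers, the cytokine receptor gene Il7r was called higher in MHC-II-positive cells (1.94, limma adjusted p = 0.00406). Of the 9 differences, averaged over cell kind, 4 were positive and 5 negative, with a median of -0.05. The mean level of this list was 3.78 to 3.90 in MHC-II-positive and 3.73 to 3.95 in MHC-II-negative melanophages, and 3.77 to 3.86 in MHC-II-positive and 3.46 to 3.63 in MHC-II-negative macrophages. Of 9 mast cell and basophil markers, 0 were called between classes. Averaged over cell kind, 1 of their differences was positive and 8 were negative, with a median of -0.10. Group means above log2 5 were found for 1 of them in each MHC-II-positive group and for 2 in each MHC-II-negative group. The part of these other cells in the Mgl2 result was not tested. Between cell kinds, averaged over MHC-II class, Itgax and Cd207 were called lower in melanophages, against 0.12% of all genes called. No other marker of the cell type lists was called there. The part of cells with these 2 markers in the Retnla result was not tested.

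Cish and Socs1, the inhibitors, had no called difference. Cish had 3.46, 3.61 and 3.88 in MHC-II-positive and 3.47, 3.84 and 3.31 in MHC-II-negative melanophages, and 3.62, 4.02 and 3.49 in MHC-II-positive and 3.13, 3.38 and 3.07 in MHC-II-negative macrophages. Its classes did not overlap in macrophages, where the difference was 0.52 ± 0.18 (limma adjusted p = 0.454). Socs1 kept within 3.80 to 4.34 on all 12 arrays, its averaged differences were -0.10 ± 0.08 between cell kinds (limma adjusted p = 0.842) and -0.12 ± 0.08 between MHC-II classes (adjusted p = 0.702), and the groups overlapped.

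Arrays of the members did not overlap in few cases. Melanophages lay below macrophages in both MHC-II classes for 1 member, Retnla, against 0.456% of all genes. This held within MHC-II-negative cells for 1 member (Retnla), against 3.91% of genes, and within MHC-II-positive cells for 2 members (Retnla and Arg1), against 4.91%. MHC-II-positive arrays lay above MHC-II-negative ones in both cell kinds for 1 member, Mgl2, against 1.11% of genes. Within melanophages this held for 3 members (Retnla, Chil3 and Mgl2), against 5.12%, and within macrophages for 3 members (Mgl2, Il13ra1 and Cish), against 4.96%.

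The promoters of both called members are shown because Stat6 is known to bind a spaced palindrome, TTCNNNNGAA, while other STAT proteins prefer TTCNNNGAA. RefSeq (GRCm38.p6) gave the bases from 250 before to 50 after the start for 8 of the 10 members, and Arg1 and Clec10a had no entry. Each motif reads the same on both strands. TTCNNNNGAA was found in the Retnla promoter, at bases -145 to -136 before the start, and in 6.95% of 32851 promoters. TTCNNNGAA was found in 2 members, Chil3 at -172 to -164 and Cish at 1 to 9 and 12 to 20, and in 8.3% of promoters. A match is a description of letters and not a measured binding site, and no match says nothing about the factor. Capitals mark the motif in the sequences below, of which Retnla lies at chr16:48842359-48842608 (plus strand) and Mgl2 at chr11:70130107-70130356 (plus strand). The start that the promoter table uses for Mgl2 lies inside the span of the gene in RefSeq's gene table, so most of the Mgl2 stretch is within the annotated gene.
Retnla: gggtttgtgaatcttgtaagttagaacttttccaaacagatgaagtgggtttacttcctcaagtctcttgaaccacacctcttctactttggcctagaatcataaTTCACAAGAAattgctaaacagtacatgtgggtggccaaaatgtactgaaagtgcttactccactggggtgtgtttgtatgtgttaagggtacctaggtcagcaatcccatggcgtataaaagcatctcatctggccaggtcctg
Mgl2: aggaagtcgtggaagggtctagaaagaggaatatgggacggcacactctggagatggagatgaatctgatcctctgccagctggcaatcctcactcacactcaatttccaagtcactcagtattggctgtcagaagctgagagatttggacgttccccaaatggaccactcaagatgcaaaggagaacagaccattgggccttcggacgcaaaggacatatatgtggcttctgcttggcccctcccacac

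The cytokine genes and the other signalling genes of the pathway gave few calls. Of 19 measured IL-4 and IL-13 signalling genes, 0 rose and 0 fell between melanophages and macrophages, averaged over MHC-II class, with a median of -0.12 and 3 at an unadjusted p under 0.05, beside 1500 of all 19938 genes. Between MHC-II classes 1 rose and 0 fell, against 0.762% of all genes called, with a median of 0.05. It was Jak2, a Janus kinase of several cytokine receptors, higher by 0.74 ± 0.14 in MHC-II-positive cells (limma adjusted p = 0.0371), a call kept in 11 of 23 alternatives. Il4 had group means of 3.08 to 3.48 and Il13 of 3.78 to 4.63, and neither passed a test. The brightest of the list were Jak1, Stat3 and Socs3, which had averaged cell-kind differences of -0.40 ± 0.14 (limma adjusted p = 0.513), -0.50 ± 0.31 (0.778) and -0.46 ± 0.23 (0.707).

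Of 31 other targets and regulators of alternative activation, 0 rose and 2 fell in melanophages, averaged over MHC-II class, with a median of -0.27 and 27 differences negative. Over all genes, 0.12% were called in that comparison, and the median was 0.01. Mmp12, the macrophage elastase, had means of 6.44 ± 0.38 and 3.95 ± 0.49 in MHC-II-positive and MHC-II-negative melanophages, and 8.36 ± 0.38 and 4.95 ± 0.47 in the macrophages of these classes (SD, n = 3). It fell by 1.46 ± 0.22 in melanophages (limma adjusted p = 0.0439), a call kept in 5 of 23 alternatives. Itgax, the CD11c integrin chain, fell by 0.80 ± 0.11 (limma adjusted p = 0.0404), kept in 13 of 23, and by 1.44 ± 0.16 within MHC-II-positive cells (adjusted p = 0.0229). Itgax is also among the dendritic cell markers above. The part of dendritic cells in the calls of this list, between kinds or between classes, was not tested. The mannose receptor gene Mrc1, another product of alternative activation, had means of 10.80, 10.81, 10.82 and 10.88 in MHC-II-positive melanophages, MHC-II-negative melanophages, MHC-II-positive macrophages and MHC-II-negative macrophages. Its averaged cell-kind difference was -0.04 ± 0.09 (limma adjusted p = 0.951), beside the fall of Retnla by 2.49.

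Between MHC-II classes, 8 of the 31 rose in MHC-II-positive cells and 0 fell, with a median of 0.22. Over all genes, 0.762% were called in that comparison, and the median was -0.02. Ccl17, a chemokine for CCR4-bearing T cells, had means of 8.21 ± 0.36 and 3.68 ± 0.26 in MHC-II-positive and MHC-II-negative melanophages, and 10.63 ± 0.73 and 4.66 ± 1.32 in macrophages of these classes (SD, n = 3). It was higher by 5.26 ± 0.40 (limma adjusted p = 0.000111). Ccl22, which acts on the same receptor, was higher by 2.19 ± 0.14 (4.04e-05), Mmp12 by 2.95 ± 0.22 (0.000108) and the oxidised-lipid receptor Olr1 by 2.63 ± 0.24 (0.000372). Clec7a, the beta-glucan receptor, was higher by 2.20 ± 0.25 (0.00212), fibronectin Fn1 by 1.35 ± 0.15 (0.00212), Itgax by 1.26 ± 0.11 (0.000379) and the checkpoint ligand Pdcd1lg2 by 1.07 ± 0.18 (0.0227). Ccl17, Ccl22, Clec7a, Itgax, Mmp12 and Olr1 were called in 23 of 23 alternatives, Fn1 in 22 of 22 and Pdcd1lg2 in 15 of 22. The MHC-II-negative means of Ccl22, Fn1, Itgax and Pdcd1lg2 were near the array medians, where differences may be understated. The brightest 3 of the list, Mrc1, Cd36 and Myc, were not called between MHC-II classes.

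**Figure D3:**
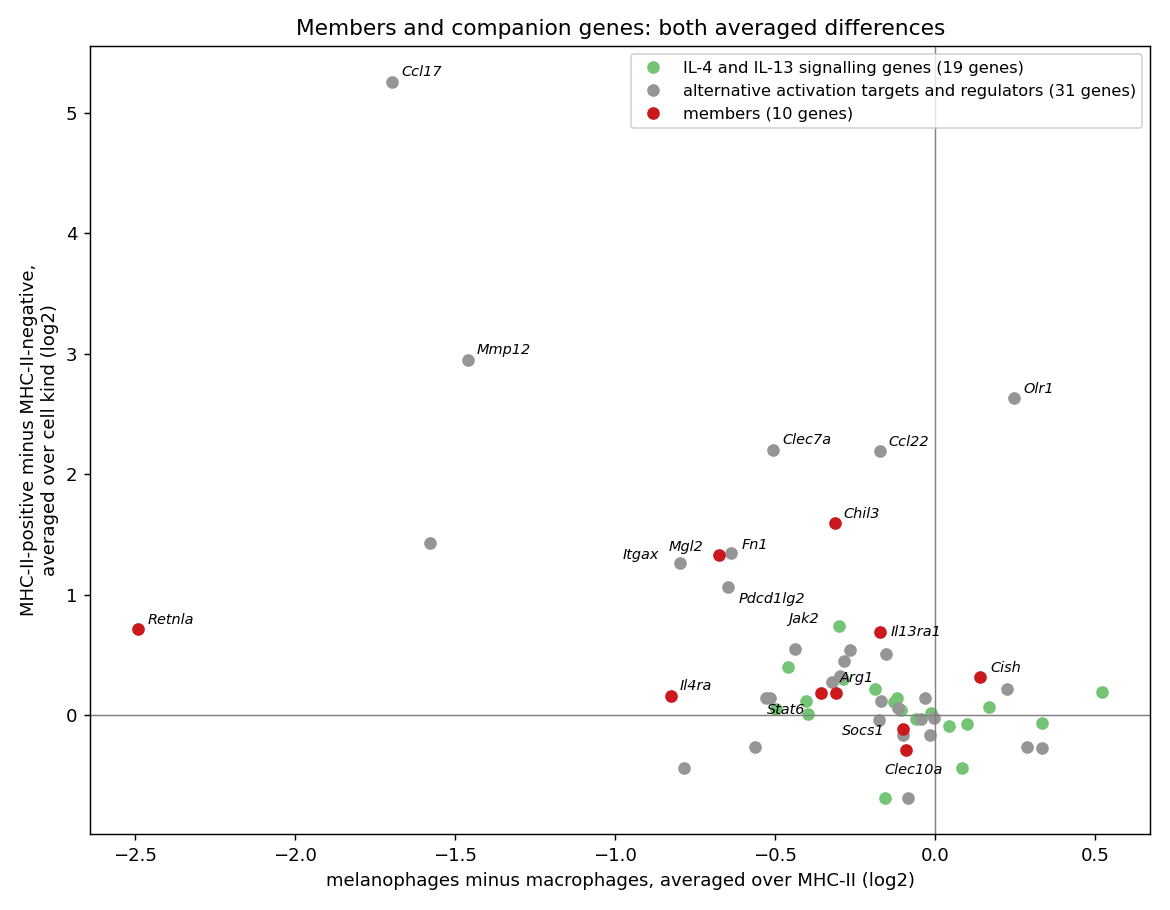
Log2 differences between melanophages and macrophages (horizontal axis, averaged over MHC-II class) and between MHC-II-positive and MHC-II-negative cells (vertical axis, averaged over cell kind) for the 10 members, 19 signalling genes and 31 other targets and regulators. Members and companion genes called in either comparison are named. Retnla lies farthest left (-2.49) and Ccl17 highest (5.26).

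Among 18 close relatives of the members, 1 rose and 0 fell in melanophages and 1 rose and 0 fell in MHC-II-positive cells. Over all genes, 0.12% and 0.762% were called in these averaged comparisons. Clec4d, a C-type lectin, was higher by 0.81 ± 0.12 in melanophages (limma adjusted p = 0.0404), kept in 11 of 23 alternatives. Clec4e, the lectin Mincle, was higher by 1.93 ± 0.18 in MHC-II-positive cells (limma adjusted p = 0.000454), kept in 23 of 23. The brightest relatives, Clec4a1, Clec4a3 and Clec4a2, were not called in the averaged comparisons. The resistin family genes Retn, Retnlb and Retnlg and the chitinase-like genes Chil1 and Chil4 had means over all arrays of 2.41 to 3.71.

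Over the 12 arrays, the genes most like Retnla by Pearson correlation, among 1064 genes with an SD of at least 0.5, were Ccr1 (0.913), Itgam (0.906), Ppbp (0.887), Pilra (0.861) and Tppp3 (0.859). Those most like Mgl2 were Cd74 (0.904), Clec7a (0.893), Batf (0.879), Itprid2 (0.879) and Ahr (0.872). Itgam encodes the CD11b of the sort, and Cd74 is a chaperone of the sorted MHC-II molecules. These points share the 4 groups, so a group difference common to both genes raises the correlation, and the values are a description.

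Among the members themselves, correlations over the 12 arrays were highest for Il4ra with Stat6 (0.694) and Retnla with Mgl2 (0.625). Once each group's mean was taken away, Retnla and Clec10a correlated at 0.785, against 0.062 before, and Clec10a and Mgl2 at 0.697, against -0.022 before. For Il4ra and Stat6 the within-group value was 0.631, and for Stat6 and Socs1 it was -0.704. Genes on 1 array share its RNA input and amplification, so these values too are descriptions.

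**Figure D4:**
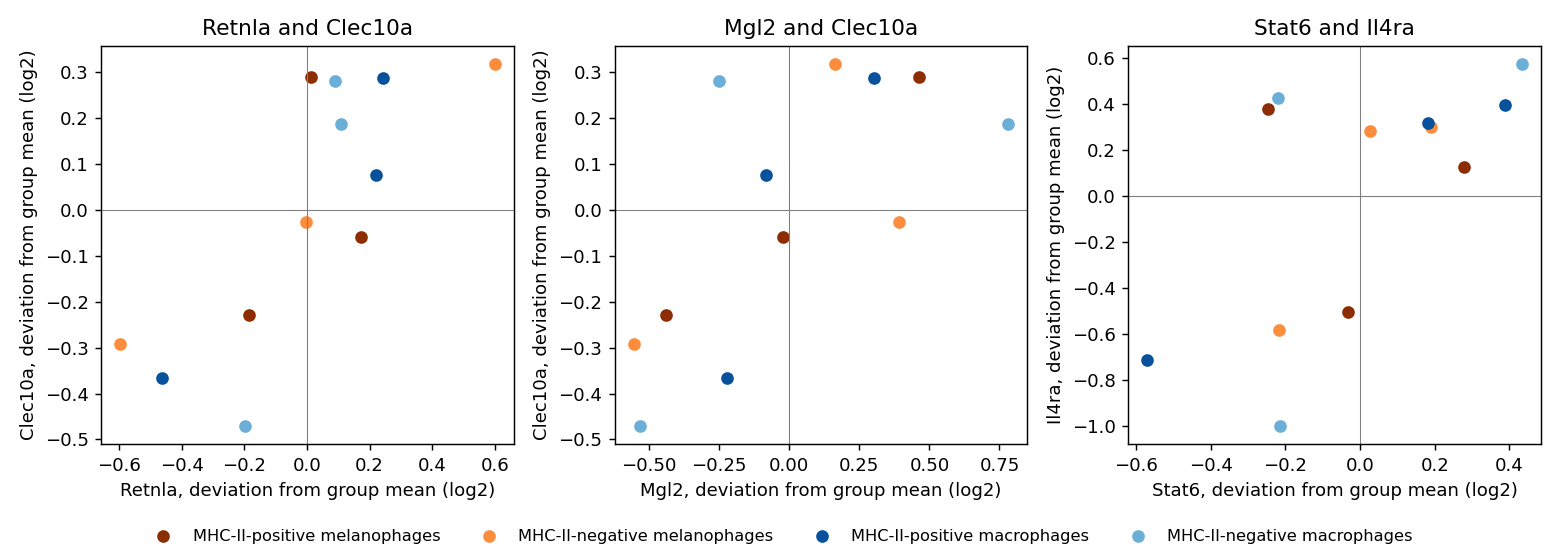
Deviations of each array from its group mean (log2) for 3 pairs of members, with 1 point per array in the colour of its group. The within-group correlations were 0.785 for Retnla and Clec10a, 0.697 for Mgl2 and Clec10a and 0.631 for Stat6 and Il4ra.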

How the data were processed

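Total RNA of sorted cells (3 to 20 ng) was amplified, labelled with biotin and hybridised to Affymetrix arrays, per the labels' protocols. The deposited table holds log2 values that the authors made by RMA with oligo, an R package (per the submitters' processing notes), and its version and settings are not stated there. RMA can compress differences of dim genes. Of 35556 probe sets, 21789 had 1 gene symbol in the platform annotation, and the brightest probe set per gene left 19938 genes. The table holds 12 arrays, no 2 of which were identical.

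One mean per group was fitted to all 12 arrays with limma 3.58.1 (lmFit and eBayes) in R 4.3.3, with 7 comparisons, two-sided, Benjamini-Hochberg adjusted over all genes and called under 0.05. The fit was run on simulated data with independent noise and with changes added only to genes brighter than the median. Such data do not test dim genes or arrays far from their group mates. Figures were drawn with matplotlib 3.10.9. Alternatives were filters on dim genes, other normalizations, other probe set rules, array weights, trend and robust options, the compared groups alone, fits without arrays, and the sets of consecutive title codes as a replicate block. Each set held 1 array of each group, and the labels do not say whether a set shares animals or a day. Correlations of deviations from group means within a set ran from -0.248 to 0.27 (median -0.026). Between arrays of different sets and groups they ran from -0.292 to 0.272 (median 0.063). The main fit did not take the sets as pairs. Correlations over all genes cannot tell whether single genes follow the sets. Precision is limited by the 3 arrays per group.

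The members and gene lists were chosen with earlier results of these data known. All members are named, with the companion genes called in any comparison, the 3 brightest of each of 3 companion lists, and the 5 genes most like Retnla and Mgl2. Of 181 list entries, 169 matched a gene, and the other entries were not analysed here.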

Additional observations from a re-analysis of the deposited data

How the results depend on the processing

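Of 1629 values of the members under the alternatives, 1548 kept their sign and their side of the threshold, 19 lost a call, 6 gained one and 56 turned sign. Most of these values belonged to differences that had no call to lose. The 19 lost calls were 4 of 24 values for Retnla between kinds in MHC-II-negative cells and 15 of 23 for Mgl2 between classes averaged. Retnla between cell kinds, averaged over MHC-II class, passed in 23 of 23 alternatives (-2.64 to -2.34, adjusted p up to 0.0166). The cause of the changes below was not tested. Between MHC-II classes averaged over cell kind, 0 members were called with every probe set, with centring on array medians, without both far macrophage arrays (replicate 1 of the MHC-II-negative and replicate 3 of the MHC-II-positive macrophages) and with the title code sets as a replicate block, where the adjusted p of Mgl2 was 0.112, and 0 to 1 without 1 array. Within MHC-II-negative cells 0 members were called between cell kinds in the fit of those groups alone, and 0 to 1 without 1 array. Within MHC-II-positive cells between kinds, and within melanophages between classes, 1 member (Retnla) was called with genes above log2 5 and with trend and robust options, and 0 to 1 without 1 array. The signalling genes gave 0 calls between classes with every probe set, repeated quantile normalization, trend and robust options and the replicate block, 2 with array weights, and 0 to 2 without 1 array. The other targets gave 0 calls between kinds with every probe set, 1 with cyclic loess, centring and the replicate block, and 0 to 1 without 1 array. The relatives gave 0 between kinds with every probe set and the replicate block, 0 to 1 without 1 array, and 2 between classes with array weights. The replicate block changed no other call of a member.

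Of values that turned sign, none passed a test. Repeated quantile normalization gave Il13ra1 0.017 between kinds in MHC-II-positive cells. Array weights gave Chil3 0.092 and Clec10a -0.031 between kinds in MHC-II-negative cells, Il4ra -0.0016 between classes averaged, Retnla -0.066 and Il4ra -0.033 between classes in macrophages, and Socs1 -0.0027 for the interaction. Without both far arrays, Chil3 was 0.40 between kinds averaged, 0.22 without and 0.59 with MHC-II and 0.37 for the interaction, Clec10a -0.082 between kinds in MHC-II-negative cells and Retnla -0.19 between classes in macrophages.

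Leaving out 1 array at a time, differences between kinds ran as follows: averaged, Chil3 -0.86 to 0.22. In MHC-II-negative cells, Arg1 -0.17 to 0.0013, Chil3 -0.40 to 0.22, Clec10a -0.082 to 0.30 and Stat6 -0.19 to 0.14. In MHC-II-positive cells, Chil3 -1.56 to 0.59, Cish -0.18 to 0.092 and Il13ra1 -0.21 to 0.27. Between classes they ran from -0.090 to 0.34 for Il4ra averaged. In melanophages, Arg1 ran from -0.082 to 0.0074, Cish from -0.0041 to 0.26, Il4ra from -0.12 to 0.42 and Stat6 from -0.23 to 0.032. In macrophages, Clec10a ran from -0.28 to 0.13, Il4ra from -0.35 to 0.51 and Retnla from -0.096 to 0.26. For the interaction, Chil3 ran from -1.41 to 0.74, Il13ra1 from -0.011 to 0.75, Il4ra from -0.34 to 0.51, Mgl2 from -0.35 to 0.31 and Socs1 from -0.041 to 0.18. The filter at log2 5 removed Arg1, Cish, Socs1, Fn1 and Pdcd1lg2, which gave no value there. Dim probe sets limit what can be seen of Chil3, Arg1, Cish and Socs1.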
